A study of Mus musculus with 4 samples.

Results

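Natural killer T (NKT) cells and other innate-like lymphocytes are described here by 9 genes of NKT and NK lineages: Zbtb16, Tbx21, Slamf1, Slamf6, Sh2d1a, Klrd1, Klrk1, Gzma and Nkg7. They were taken from the table of bead signals as the probes named ZBTB16, TBX21, SLAMF1, SLAMF6, SH2D1A, KLRD1, KLRK1, GZMA or NKG7, which gave 13 of the 45281 probes on the array, and all 9 genes had at least 1 probe. Total RNA of whole thymus from C57BL/6 mice was read on Illumina mouse bead arrays, 1 sample per array. There were 2 arrays of a miR-181d transgenic line (named Tg-8) and 2 of a miR-181d knockin line. The labels do not give the promoter of the transgene, the structure of the knockin allele or the age of the mice, and no wild-type thymus was analysed here, so each value places one genotype against the other. No probe on the array carries a name of the Mir181 genes (0 of 45281), so the level of the microRNA itself was not measured.

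NKT cells arise in the thymus from CD4+CD8+ double-positive thymocytes whose T cell receptor recognises lipid presented by CD1d on neighbouring thymocytes. Their selection needs a second signal from receptors of the SLAM family, passed on by the adaptor SAP, and their innate-like programme is set by the transcription factor PLZF. Part of them then acquire T-bet, NK receptors and cytotoxic granules. NKT development is known to depend on the miR-181 family, microRNAs abundant in double-positive thymocytes that tune T cell receptor signalling and metabolism.

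The mature miR-181 sequences are shown because miR-181d is the gene altered in both lines, and because its relatives share its seed. Sequences are from RefSeq (GRCm38.p6), 5′ to 3′, with bases 2 to 8, the seed, in capitals:
mmu-miR-181d-5p: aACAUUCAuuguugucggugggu
mmu-miR-181b-5p: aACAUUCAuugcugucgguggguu
mmu-miR-181a-5p: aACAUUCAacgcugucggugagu
mmu-miR-181c-5p: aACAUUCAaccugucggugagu
All 4 carry the same seed, and miR-181d differs from miR-181b at 1 of the 23 positions they have in common. miR-181d-5p lies at chr8:84178759-84178781 on the minus strand, next to miR-181c.

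The arrays read thymus, since all 10 thymocyte markers checked, such as Cd3e, Cd8a, Rag1 and Lck, were above background on all 4 arrays. For each array a background limit was taken 3 SDs above the peak of the signal distribution, with the SD from the probes below that peak. It came to 146.5 to 148.5, and 43.2% to 48.0% of probes lay above it. Knockin replicate 2 stood apart by sex. It read 129.5 for Xist and 3519 for the Y-linked Ddx3y, against 4366 to 4570 and 484.4 to 553.7 on the other 3 arrays, so that sex and replicate cannot be told apart within the knockin group. Granulocyte markers were another difference between the groups: all 7 were lower in transgenic thymus, with summed signals of 4868.5 and 3751 against 9630 and 12124 in knockin thymus. Of these 7 markers 4 passed (limma, adjusted p under 0.05), where 0.117% of all genes did. The 4 erythroid markers summed to 5090 and 4892 in transgenic and to 6209 and 8853 in knockin thymus, with log2 differences of -0.75 for Hba-a1 and -0.44 for Hbb-b1 that did not pass (limma, adjusted p = 0.726 and 0.858). The 10 thymocyte markers summed to 79394 and 71063 in transgenic and to 83216 and 81672 in knockin thymus. These sums are of deposited signals before normalisation. After it the thymocyte markers had a median log2 difference of -0.031, which ranged from -0.18 to 0.073 with 1 array left out, and none was called. The part of these cell markers in the results below was not tested. In RNA of a whole organ, fewer cells of a type and less RNA per cell cannot be told apart. The labels do not say that the samples of a group came from separate mice, and where they did not, the p-values measure technical spread.

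The question put to these genes was whether NKT and NK lineage transcripts differ between thymus of the 2 lines. None of the 13 probes passed (limma, Benjamini-Hochberg adjusted p under 0.05 over all probes), where 0.0795% of all probes did. Klrd1 had the largest difference and was 1.50-fold higher in transgenic thymus after normalisation, with adjusted p = 0.484. The ratio of its mean deposited signals, transgenic to knockin, was 1.34. Sh2d1a, Slamf1 and Nkg7 were also well above background, while Zbtb16, Tbx21, Klrk1 and Gzma lay at or close to it. Over the 13 probes the log2 difference, transgenic minus knockin, ranged from -0.18 to 0.58. Its median was 0.076, against 7.86e-04 over all probes. That median is the value of the probe named SLAMF6, which was under background on all arrays. Of the 13 probes 10 were above 0 and 3 below, beside 22767 and 22514 of all 45281 probes. Only 5 of the 13 were above background on all arrays, 4 with a difference above 0 and 1 below. Probes under older names of Slamf1 and Slamf6 are not among the 13. At an unadjusted p under 0.05 there was 1 member probe, that of Klrd1, where 4.63% of all probes had such a p. Differences are in normalised log2 intensity with the limma standard error and 95% interval, and n = 2 arrays per group throughout.

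**Figure D1:**
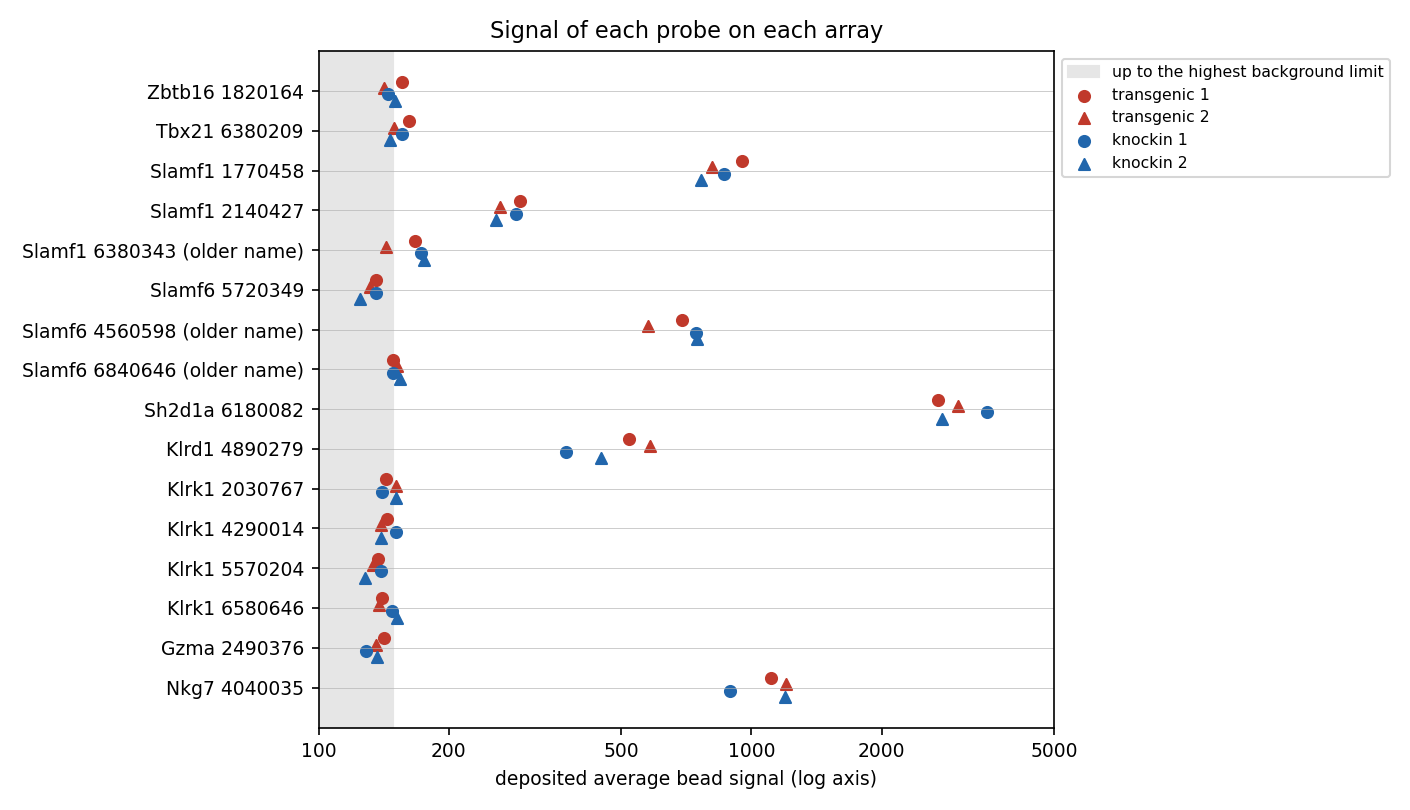
Deposited average bead signal (log axis) of the 13 probes and of 3 further probes that carry older names of Slamf1 and Slamf6, with 1 point per array and the genotype by colour. Klrd1 is the one bright gene in which both transgenic arrays lie clear of both knockin arrays on the higher side, and Zbtb16, Tbx21, Klrk1 and Gzma stay within or beside the grey background range.

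Zbtb16 encodes PLZF, the transcription factor that directs the innate-like programme of NKT cells. Its probe read 155.9 and 141.7 in transgenic and 144.9 and 150.2 in knockin thymus, above the background limit on 1 array of each group. The groups overlapped, and the log2 difference was 0.03 (SE 0.105, 95% interval -0.20 to 0.27, adjusted p = 1.00). Tbx21 encodes T-bet, which drives interferon-gamma production and the NKT1 and NK fates. It read 162.1 and 149.4 in transgenic and 155.5 and 146.1 in knockin thymus, above the limit on 3 of 4 arrays, and again the groups overlapped (log2 0.09, SE 0.116, 95% interval -0.17 to 0.35, adjusted p = 1.00). Signals this close to background bound the level of a transcript poorly, so a difference in either factor was not detectable with these probes.

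Slamf1 (SLAM, CD150) is a self-binding receptor of double-positive thymocytes that takes part in NKT selection. Its brighter probe read 952.4 and 808.9 in transgenic and 862.1 and 764.8 in knockin thymus, 5.15 to 6.45 times the background limit. The second probe read 292.2 and 262.5 against 285.4 and 256.4. On both probes replicate 1 of each genotype read higher than replicate 2 in deposited signal, and the genotypes overlapped. After normalisation the order of the transgenic arrays turned. Replicate 2 was slightly above replicate 1, at 9.72 against 9.70 and 7.77 against 7.74 in log2 intensity, and the genotypes still overlapped. The log2 differences were 0.21 (SE 0.141, 95% interval -0.11 to 0.52) and 0.11 (SE 0.141, 95% interval -0.21 to 0.42), with adjusted p = 1.00 for each. Both values rested on knockin replicate 2, the male sample: without it they were -0.012 and -0.11, and without knockin replicate 1 they were 0.43 and 0.32.

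Slamf6 (Ly108) is the partner of Slamf1 in NKT selection, also expressed on double-positive thymocytes. The probe named SLAMF6 was under the background limit on all 4 arrays, at 135.6 and 131.8 in transgenic and 135.6 and 124.6 in knockin thymus, and gives no measure of the gene. The array holds 2 more probes of the gene under its older name Ly108, which the choice by name had missed. The brighter of these read 691.1 and 576.9 in transgenic and 745.9 and 750.5 in knockin thymus, so Slamf6 was measured well above background after all. Both transgenic arrays lay below both knockin arrays there, as was the case for 15.2% of the probes above background on all arrays, and the log2 difference was -0.18 (SE 0.114, 95% interval -0.44 to 0.07, adjusted p = 1.00). The dimmer Ly108 probe read 148.9 to 154.2 over the 4 arrays, with a difference of 0.01. A probe under the name Slam, now Slamf1, read 167.1 and 143.4 in transgenic and 172.7 and 175.0 in knockin thymus, with a difference of -0.26 (SE 0.121, adjusted p = 1.00). That sign is opposite to those of the 2 Slamf1 probes above, and the positions of the probes on the transcript were not used here.

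Sh2d1a encodes SAP, the X-linked adaptor that couples SLAM receptors to the kinase Fyn. It read 2700 and 3007 in transgenic and 3495 and 2757 in knockin thymus, at least 18.3 times the background limit on each array. Transgenic replicate 2 lay between the knockin arrays and transgenic replicate 1 just below them, so the groups overlapped (log2 -0.03, SE 0.178, 95% interval -0.43 to 0.37, adjusted p = 1.00). The direction followed single arrays, since the difference was -0.30 without knockin replicate 2, the male sample, and 0.24 without knockin replicate 1. Leaving out transgenic replicate 1 gave 0.13, and leaving out transgenic replicate 2 gave -0.19. The interval allows a difference of up to about 0.43 on the log2 scale in one direction and 0.37 in the other.

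Klrd1 encodes CD94, the lectin-like chain that pairs with NKG2 receptors on NK cells, NKT cells and part of the CD8 T cells. Its probe read 522.2 and 582.0 in transgenic and 372.1 and 449.8 in knockin thymus, 2.53 to 3.97 times the background limit. Both transgenic arrays were above both knockin arrays, as was the case for 15.6% of the probes above background on all arrays. Normalised log2 intensity was 8.97 ± 0.31 (SD, n = 2) in transgenic and 8.39 ± 0.060 (SD, n = 2) in knockin thymus, a difference of 0.58 (SE 0.142, 95% interval 0.27 to 0.90). Its unadjusted p of 0.00226 was the 208th smallest of the 45281 probes, and limma's adjusted p was 0.484. The size was larger than that of 99.1% of probes above background on all arrays, whose median size was 0.096. Transgenic replicate 2 carried much of it: without that array the difference was 0.37 (adjusted p = 0.967), and without transgenic replicate 1 it was 0.80 (adjusted p = 0.0589). Adjusted p ranged from 0.0589 to 1.00 over the settings shown for it in the plot with arrays left out. It was 0.00772 with crossed replicate numbers as a block, a setting chosen after seeing the data and not plotted. Leaving out knockin replicate 2, the male sample, gave 0.62.

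Klrk1 encodes NKG2D, an activating receptor for stress-induced ligands, and has 4 probes. Their signals lay between 128.1 and 151.6 over the 4 arrays, none above the limit on more than 2 arrays and 1 under it on all. Log2 differences were 0.06, -0.18, -0.06 and 0.04, with adjusted p = 1.00 for each. On the probe at -0.18 (SE 0.100, 95% interval -0.41 to 0.04) both transgenic arrays, at 140.1 and 137.9, were below both knockin arrays, at 147.8 and 151.6, as groups did not overlap for 32.7% of all probes. The 4 probes thus differed in sign among themselves at a signal near background, and no level of Klrk1 can be given. Klrk1 is a direct neighbour of Klrd1 in the NK gene complex.

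Cytotoxic granule genes were split by level. Gzma encodes granzyme A, a serine protease of NK cells and cytotoxic T cells, and was under the background limit on all 4 arrays (141.5 and 136.1 in transgenic, 128.7 and 136.3 in knockin thymus), so no fold is given. Nkg7, a granule membrane protein of cytotoxic lymphocytes, was bright, at 1109 and 1201 in transgenic and 891.3 and 1198 in knockin thymus, 6.06 to 8.19 times the limit. Knockin replicate 1 read lowest while knockin replicate 2 lay with the transgenic arrays, so the groups overlapped. The log2 difference was 0.26 (SE 0.142, 95% interval -0.06 to 0.57, adjusted p = 1.00), a larger size than that of 90.4% of probes above background on all arrays. It ranged from 0.057 without transgenic replicate 2 to 0.46 without transgenic replicate 1.

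**Figure D2:**
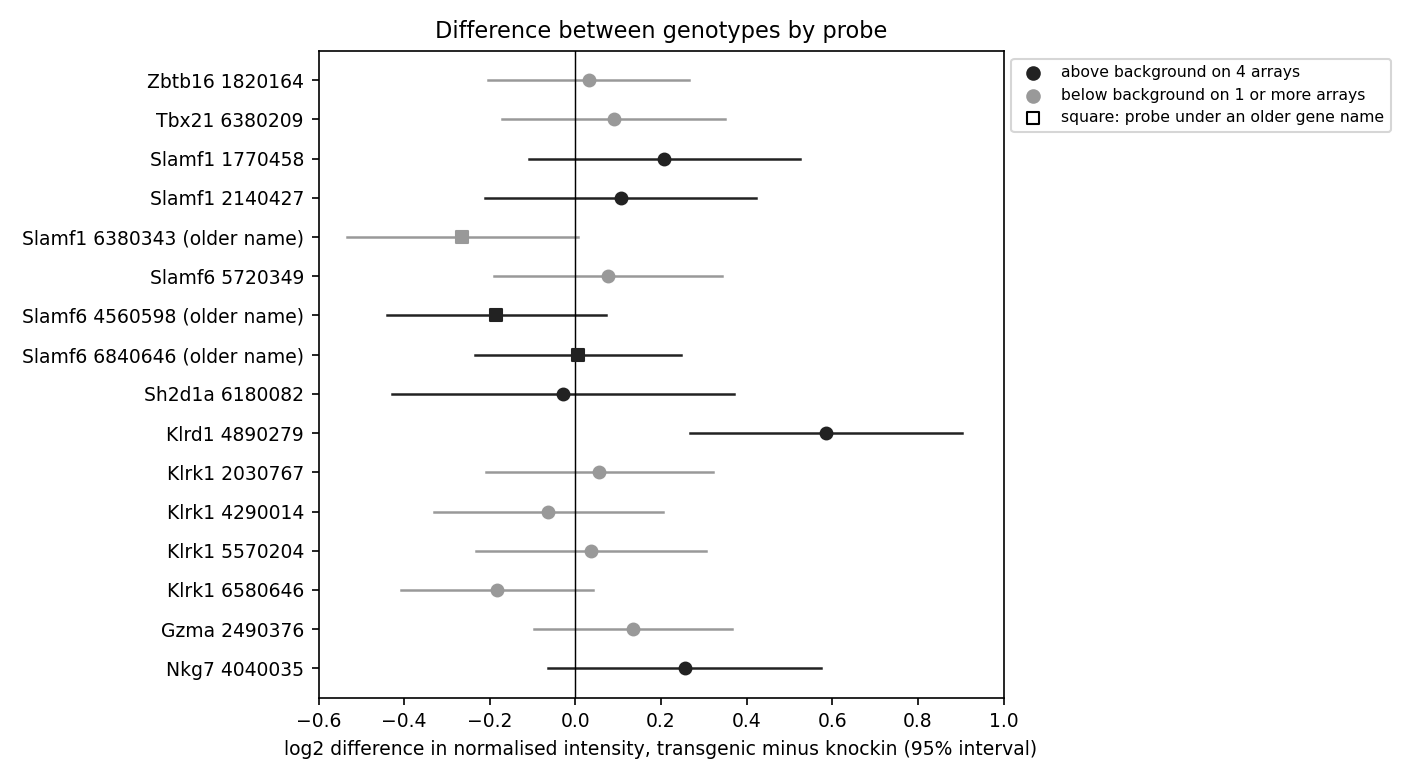
Log2 difference in normalised intensity, transgenic minus knockin, with its 95% interval for each of the 16 probes. Klrd1 is the single probe whose interval, 0.27 to 0.90, lies clear of 0, and that interval is not adjusted for the number of probes tested.

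The plot of differences with each array left out shows how far the 6 bright probes depended on single samples. Klrd1 and Nkg7 kept a positive sign and the brighter Ly108 probe of Slamf6 a negative one in all settings plotted, while Sh2d1a and both Slamf1 probes changed sign when 1 array was removed. In each of the 6 probes the array that mattered most moved the value further than any change of background correction or normalisation.

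**Figure D3:**
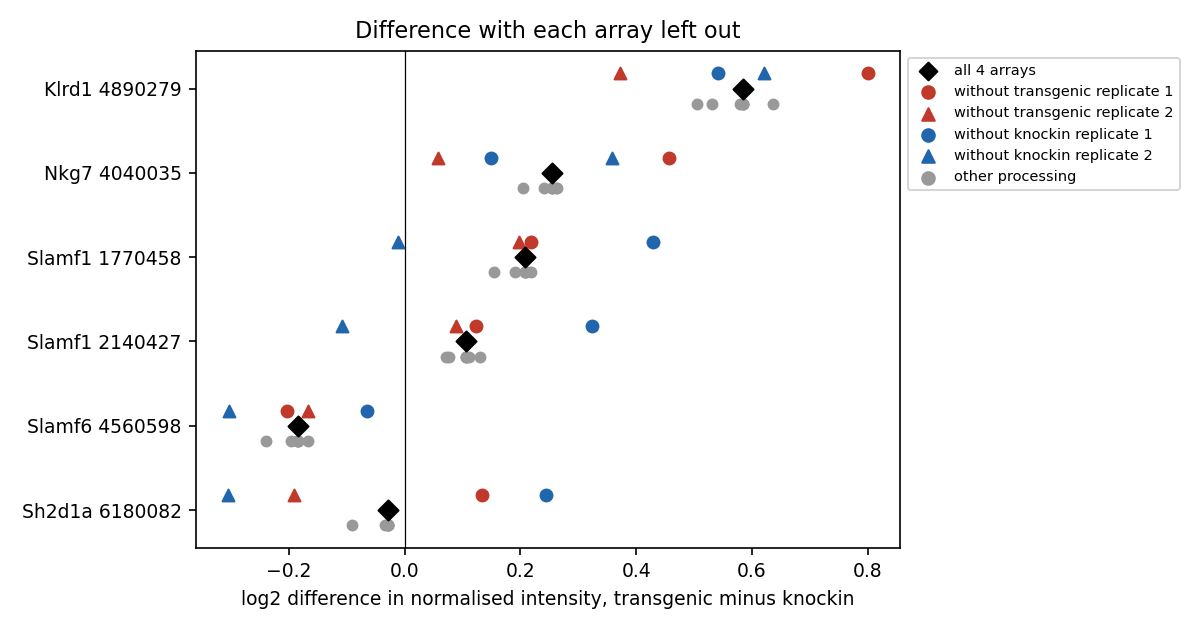
Log2 difference, transgenic minus knockin, of the 6 bright probes with all 4 arrays (diamond), with each array left out in turn (coloured) and under other processing (grey). Klrd1 runs from 0.37 to 0.80, whereas Sh2d1a runs from -0.30 to 0.24 across 0.

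The 9 genes stand in wider pathways, which were described with 6 lists of 119 genes, of which 111 were measured and 70 were above background on all arrays, taking the brightest probe of each gene. No listed gene passed at an adjusted p under 0.05, where 0.117% of all genes did. An unadjusted limma p under 0.05 was seen for 15 of the 111, with differences on both sides of 0. It was seen for 1043 of all 19579 genes (5.33%), and for 1460 of the 18110 probes above background on all arrays. The lists were chosen with earlier results of these data known, so the count of 15 is no test of them.

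NK receptors and their adaptors gave no called gene, and the list as a whole was not tested. Of 32 measured, 20 had a difference above 0, with a median of 0.057. Of these 32, 11 were above background on all arrays, and 9 of these 11 had a difference above 0, with a median of 0.14 against 3.03e-04 over all genes so measured. Beside Klrd1 the smallest p-values were those of Cd160, Hcst and Klra17. Cd160, a receptor of NK cells and innate-like T cells, read 374.2 and 417.4 in transgenic and 305.7 and 338.1 in knockin thymus (log2 0.44, SE 0.143, adjusted p = 0.876). Hcst, which encodes DAP10, the signalling adaptor of NKG2D, read 1075 and 1105 against 886.8 and 977.0 (log2 0.33, SE 0.125, adjusted p = 1.00). Klra17, of the Ly49 family, read 170.9 and 180.7 against 159.7 and 156.2 (log2 0.29, adjusted p = 1.00), and near-identical Ly49 genes may share its signal. In each of these 3 genes both transgenic arrays were above both knockin arrays after normalisation, as for Klrd1. They were chosen by small p, which goes with groups that do not overlap, so this adds no separate evidence. Of the 32 genes 10 were higher and 3 lower without overlap, and 13 of the 32 were under background on all arrays. Klra2, Klrg1, Klrc3, Klri2 and Ncr1, among the 10, were under background on all arrays. The 3 lower genes were Klra1, Klra7 and Klra4, of the Ly49 family like Klra17, at -0.24, -0.11 and -0.092. Among all 19579 genes 3127 were higher and 3090 lower without overlap, 31.8% in either direction. After normalisation transgenic replicate 2 was the highest array for Klrd1, Cd160, Hcst, Klra17, Nkg7, Prf1 and the brighter Slamf1 probe. Without it the median of the 11 genes above background was 0.0060, with 6 of 11 above 0, and without transgenic replicate 1 it was 0.31. Over the same pair of settings Cd160 was at 0.22 and 0.66 and Hcst at 0.17 and 0.49. Defining NK receptors gave little signal: Ncr1 (NKp46) and Klrc1 (NKG2A), the usual partner of CD94, were under the background limit on all arrays at 123.5 to 132.0 and 126.6 to 133.9, and Klrb1c (NK1.1) read 142.6 to 161.1. Tyrobp, the DAP12 adaptor shared with myeloid cells, had a difference of -0.06.

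Among cytotoxic granule and effector genes 14 of 19 were above background on all arrays, 9 with a difference above 0 and 5 below, and a median of 0.098. The median was 0.017 without transgenic replicate 2 and 0.041 without knockin replicate 1, and without transgenic replicate 1 there were 7 above 0 and 7 below. Ctsw, cathepsin W of NK and CD8 T cells, read 1814 and 1298 in transgenic and 1029 and 1553 in knockin thymus, overlapping before normalisation (log2 0.38, SE 0.147, adjusted p = 1.00). Ccl5, a chemokine of effector lymphocytes, went the other way, with 1094 and 736.2 against 994.2 and 1456 (log2 -0.37, SE 0.148, adjusted p = 1.00). With 1 array left out Ctsw ranged from 0.19 to 0.58 and Ccl5 from -0.54 to -0.20. Fasl had a difference of 0.22 and Gzmb, under the limit on all arrays, has no usable value. Prf1, the pore-forming perforin, read 1041 and 1233 in transgenic and 936.7 and 1063 in knockin thymus (log2 0.28, SE 0.156, adjusted p = 1.00). The groups overlapped before and after normalisation. Normalised log2 intensity was 9.84 and 10.36 in transgenic and 9.85 and 9.79 in knockin thymus, so transgenic replicate 2 alone stood higher.

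Genes of NKT selection and SLAM signalling went both ways, with 8 of the 17 above background having a difference above 0 and 9 below, and a median of -0.029. The split was 5 and 12 under median scaling (median -0.061) and without knockin replicate 2 (median -0.040), and 10 and 7 without transgenic replicate 1 (median 0.024). Of all 20 measured, 1 was higher and 6 lower without overlap after normalisation, where groups did not overlap for 31.8% of all genes. Cd1d2, among the 6, was under background on all arrays. Cd1d1, which encodes the presenting molecule of NKT cells, differed by 0.02, and Fyn, the kinase recruited by SAP, by -0.12. Egr1 and Egr2, induced by T cell receptor signals and known to act upstream of Zbtb16 in NKT precursors, had differences of -0.45 (SE 0.108, adjusted p = 0.484) and -0.38 (SE 0.105, adjusted p = 0.683). Egr2 read 625.2 and 493.6 in transgenic and 698.5 and 780.6 in knockin thymus. Tcf12, an E protein that acts early in NKT development, differed by -0.19 (adjusted p = 1.00). Among the remaining SLAM family receptors, Ly9 differed by 0.20 and Cd84 by 0.02.

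Genes of NKT differentiation and subsets showed values in both directions, with 6 of the 16 above background having a difference above 0 and 10 below, and a median of -0.038. Of all 24 measured, 4 were higher and 7 lower without overlap after normalisation, where groups did not overlap for 31.8% of all genes. Il17a and Eomes among the 4 and Ifng among the 7 were under background on all arrays. Ccr6, a chemokine receptor of interleukin-17-producing cells, read 289.3 and 247.0 in transgenic and 317.6 and 396.0 in knockin thymus (log2 -0.45, SE 0.107, adjusted p = 0.463). Il18r1, the interleukin-18 receptor chain of NKT1 and NK cells, read 382.5 and 327.8 against 288.5 and 298.6 (log2 0.40, SE 0.108, adjusted p = 0.621). Id2, an inhibitor of E proteins, read 986.5 and 849.7 against 1124 and 1282 (log2 -0.33, SE 0.100, adjusted p = 0.803). Lef1, an early NKT and T cell factor, read 536.9 and 351.0 against 538.5 and 662.2 (log2 -0.46, SE 0.151, adjusted p = 0.885). Lef1 was at -0.22 without transgenic replicate 2 and at -0.70 without transgenic replicate 1. Ifng was under the background limit on all arrays, and Il4 read 171.9 to 191.3.

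Genes of other innate-like cells gave no called member. Of 8 gamma-delta T cell genes above background on all arrays 7 had a difference below 0, with a median of -0.094. That count rested on the knockin arrays: without knockin replicate 1 it was 4 of 8 (median -0.075), and without knockin replicate 2 it was 5 of 8 (median -0.12). Sox13 read 164.3 and 148.9 in transgenic and 182.5 and 175.6 in knockin thymus (log2 -0.30, SE 0.118, adjusted p = 1.00). Il1r1, above the limit on 2 arrays, had a difference of -0.31, Blk one of -0.18 and Etv5 one of 0.24 (adjusted p = 0.941, 1.00 and 1.00). Among genes of group 2 and 3 innate lymphoid cells 4 of the 10 above background were higher and 6 lower in value, with a median of -0.038. The order turned to 6 higher and 4 lower without transgenic replicate 2 (median 0.049) or knockin replicate 2 (median 0.041), and without transgenic replicate 1 the median was -0.13. Arg1 had a difference of 0.27, Tox of -0.28 and Gata3 of -0.23, with adjusted p = 1.00 for each, and Klrg1 was under the limit on all arrays. Without transgenic replicate 2 Tox was at -0.088, and without knockin replicate 2 Gata3 was at -0.093. B cell markers, which the organ also holds, summed to 1548 and 1473 in transgenic and 1624 and 1605 in knockin thymus, and mature T cell markers to 9896 and 9135 against 9353 and 11548.

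**Figure D4:**
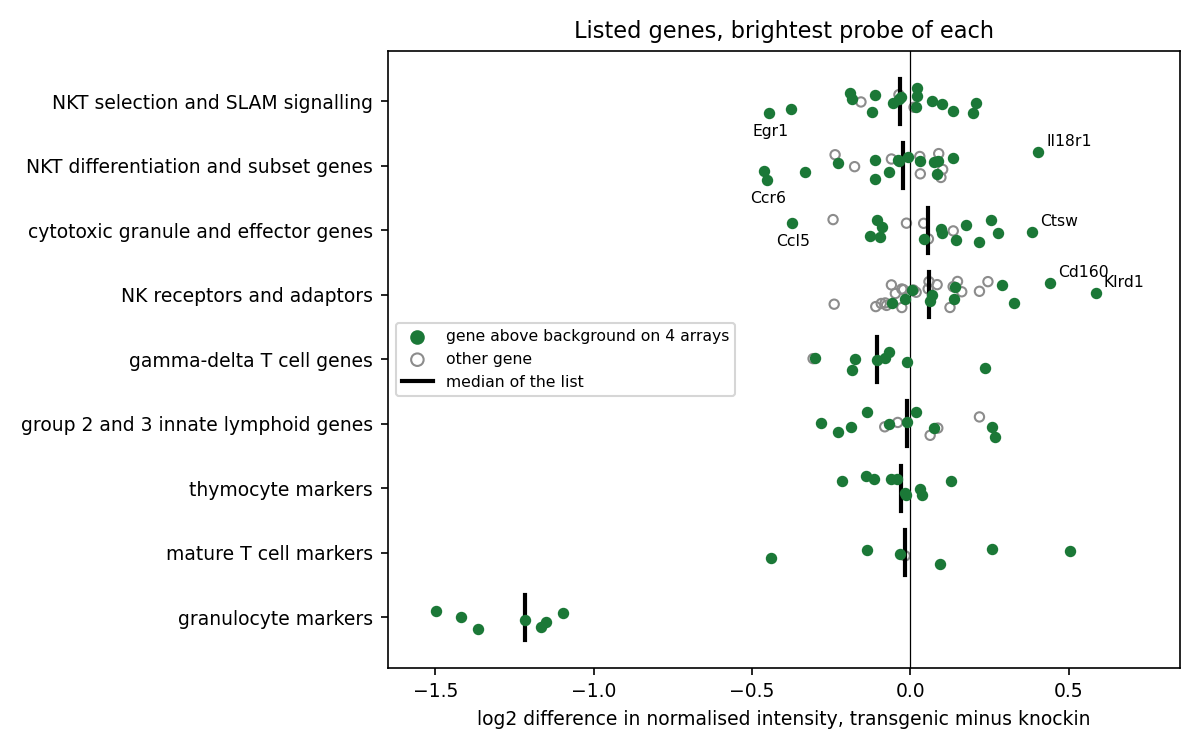
Log2 difference, transgenic minus knockin, of each listed gene on its brightest probe, with the median of each list as a bar and genes above background on all 4 arrays filled. Thymocyte, mature T cell and granulocyte markers are plotted below the pathway lists. Klrd1 at 0.58 and Cd160 at 0.44 form the upper end of the NK receptors, while the 7 granulocyte markers lie apart with a median of -1.22.

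No neighbour of Klrd1 in the NK gene complex had a difference as large in the same direction. Of 26 measured genes within 20 places on either side, 9 were above background on all arrays, with differences from -0.45 to 0.29 and none called. The lowest were Clec2d, a lectin-like ligand of the NK receptor NKR-P1, at -0.45 (SE 0.114, adjusted p = 0.562), and the activation marker Cd69 at -0.44 (SE 0.103, adjusted p = 0.449). Clec2d read 2189 and 2197 in transgenic and 3064 and 3208 in knockin thymus, with no overlap. Gabarapl1, 2 places from Klrd1, differed by -0.06. Around Slamf1, from Cd48 on one side to Pex19 on the other, 7 of 8 measured neighbours were above background on all arrays, with differences from -0.18 to 0.19. Ly9, described above, lies outside that stretch.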

How the data were processed

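Per the file headers, the deposited table of average bead signal intensity comes from GenomeStudio 1.9.0, with normalization and error model set to none, and lacks detection p-values and control probes. The authors' deposited value table holds processed intensity, by a method not given in the sources used here, and its probes are not paired with genes here, so only a count of calls was taken from it on log2(value + 8). Signals were corrected with normexp (offset 50), taken to log2 and quantile normalised. The added offset compresses differences of dim probes. Limma 3.58.1 in R 4.3.3 compared the groups over all probes, two-sided, with Benjamini-Hochberg adjustment, and the code was tested on simulated data. Adjusted p-values printed as 1.00 are rounded. Probe names were matched to RefSeq symbols (GRCm38.p6): 22864 by symbol, 11917 by synonym, 282 to several genes and 10218 to none. Members and lists were chosen with earlier results of these data known. Named genes are all member probes, the 4 smallest p-values of each list and defining markers. The Ly108 and Slam probes, Prf1, Cd1d1, Fyn, Ly9, Cd84, Tyrobp, Ncr1, Klrc1, Klrb1c, Ifng, Il4 and the neighbours were named after their values were seen. So were Cd1d2, Il17a, Eomes, Klra1, Klra2, Klra4, Klra7, Klrc3 and Klri2. Depth has no counterpart on arrays, and the number of arrays limits precision. Alternatives were other corrections and normalisations, a filter on dim probes, other priors, a replicate block and leaving out each array.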

Additional observations from a re-analysis of the deposited data

How the results depend on the processing

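The count of called probes over the whole array depended on the processing: 36 became 3 without background correction, 70 with an offset of 16, 2 with median scaling, 112 with robust priors and an intensity trend, and 0 in the authors' value table (3299 at an unadjusted p under 0.05), and it ran from 24 to 88 with each array left out. It was 35 with cyclic loess and 53 among probes above background on 2 or more arrays. No member probe and no listed gene passed under these settings, apart from the authors' value table, which was not run for them since its probes are not named here. Averaging the probes of each gene called no listed gene either. The replicate number as a block gave 38 called probes and no member, with an adjusted p of 0.518 for Klrd1. Same-numbered arrays deviated in opposite directions (r = -0.36 over 18110 probes, which are not independent), and the labels do not say that the numbers pair the mice. With crossed numbers as a block, added after seeing the data, 364 probes passed, among them 1 member and 4 listed genes (Klrd1 in both, Ccr6, Egr1 and Lef1). Signs reversed with 1 array left out for 9 member probes, whose ranges over the 4 removals were -0.040 to 0.11 (Zbtb16), -0.033 to 0.22 (Tbx21), -0.012 to 0.43 and -0.11 to 0.32 (Slamf1), -0.065 to 0.22 (the SLAMF6 probe), -0.30 to 0.24 (Sh2d1a) and -0.074 to 0.18, -0.20 to 0.081 and -0.11 to 0.18 (Klrk1). The dimmer Ly108 probe ran from -0.081 to 0.090 and was at -0.0074 with median scaling. The cause of these changes was not tested. Signal close to background limits what can be said of Zbtb16, Tbx21, Klrk1 and Gzma.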
